A study of Mus musculus with 9 samples.

Results

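The genes described here are 10 that encode goblet cell mucins and the proteins made and secreted with them, together with 1 regulator of the lineage. They were chosen by name, with earlier results of these data known, and are Spdef, Muc2, Fcgbp, Clca1, Zg16, Tff3, Spink4, Agr2, Muc13 and Muc1. All 10 symbols matched 1 gene each among the 46517 genes of the deposited count tables, and all 10 were among the 14870 genes with enough reads to be tested. Expression was measured in mouse intestinal stem cells that had been dispersed and grown into colonies for 4 days inside 1 of 3 matrices. Each matrix had 3 libraries, which makes 9 libraries. Matrigel is a laminin-rich basement membrane extract from a mouse tumour. The other 2 matrices were synthetic hydrogels of polyethylene glycol (PEG), 1 that cells can degrade (degradable PEG) and 1 that they cannot (non-degradable PEG). Cells in all 3 matrices received EGF, noggin, R-spondin, valproic acid, which inhibits histone deacetylases, and CHIR99021, which inhibits the kinase GSK3. The labels name no strain, age or genotype of the mice. Nor do they state whether libraries of 1 matrix are separate cultures or animals, and the p-values then measure only the spread among these libraries, which may be technical.

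Goblet cells are the mucus-making cells of the intestinal epithelium. They arise in the crypt from progenitors in which Notch signalling is low and the transcription factor Atoh1 is active, and Spdef, an Ets family factor, acts after Atoh1 to drive their maturation. Mature cells fill large granules with the gel-forming mucin MUC2 and with proteins that travel with it, among them FCGBP, CLCA1, ZG16 and TFF3, and the released gel separates the epithelium from the bacteria of the lumen. Another class of mucins, which includes MUC13 and MUC1, stays anchored in the apical membrane and forms part of the glycocalyx of many epithelial cells.

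Gene counts added up to 38.0 M to 47.2 M reads per library, with the mitochondrially encoded genes at 3.00% to 3.99% of them in Matrigel, 3.92% to 4.51% in non-degradable PEG and 3.20% to 4.41% in degradable PEG. The tally of multiply aligned entries was 70.1 to 71.8 per 100 assigned reads in Matrigel, above the 66.0 to 68.8 and 65.2 to 69.4 of the PEG gels. The part of these measures in the results was not tested. Levels are counts relative to library size (CPM), with library sizes scaled by edgeR's TMM method, and error is the SD over n = 3 libraries unless an SE is named. Differences are log2 fold changes with their SE from edgeR's quasi-likelihood test, and a gene was called changed where its Benjamini-Hochberg adjusted p over all tested genes was under 0.05. Matrigel replicate 1 stood apart for these genes. It was the highest of the 3 Matrigel libraries for 9 of the 10, whereas it was the highest for 38.1% of all tested genes. It held 1.18 to 3.89 times the mean of the other 2 Matrigel libraries for those 9 genes, with the highest ratio in Zg16 and the lowest in Muc13, and 0.195 times that mean for Muc1. Values against Matrigel are therefore also given without this library for the 10 genes and for several of the further genes.

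All changes that edgeR called among these genes with all 9 libraries, the read filter and no replicate block were decreases in the PEG gels. In non-degradable PEG, 4 of the 10 were lower than in Matrigel (Spdef, Fcgbp, Tff3 and Spink4) and 0 were higher, against 7.13% of all tested genes called lower, 9.71% called higher and 16.8% called in either direction. In degradable PEG, 5 of the 10 were lower (the same 4 and Muc2) and 0 were higher, against 4.79% lower, 7.42% higher and 12.2% in either direction. Between the PEG gels, 0 of the 10 were called, against 1.28% of all tested genes (0.814% higher and 0.464% lower in non-degradable PEG). By the libraries themselves, all 3 PEG libraries lay below all 3 Matrigel libraries for 4 of the 10 genes in non-degradable PEG, against 21.6% of all tested genes. In degradable PEG this held for 6 of the 10, the 5 called genes and Clca1, against 14.8%. The median log2 fold change of the 10 genes was -0.58, -1.87 and 0.44 in the 3 comparisons, and the median of all tested genes was -0.0021, -0.0163 and 0.0033. Both comparisons with Matrigel use the same 3 Matrigel libraries. Without Matrigel replicate 1, the counts of lower genes among the 10 were 3 (Spink4 was lost) and 4 (Muc2 was lost), and 0 of the 10 were higher. Over all 15104 genes tested at that setting, 510 were lower and 942 higher in non-degradable PEG. In degradable PEG 364 were lower and 722 higher. With the replicate number as a block, 5 of the 10 were lower in non-degradable PEG, Agr2 being the addition. The block also raised the calls over all 14870 genes there, to 1786 lower and 2091 higher. In degradable PEG the same block gave 8 lower and 1 higher (Muc1), against 1231 lower and 1552 higher of all 14870 genes. The edgeR fit with no filter also called Muc1 higher in degradable PEG (adjusted p = 0.0203). In bulk RNA, fewer goblet cells and less RNA of these genes per cell cannot be told apart.

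**Figure D1:**
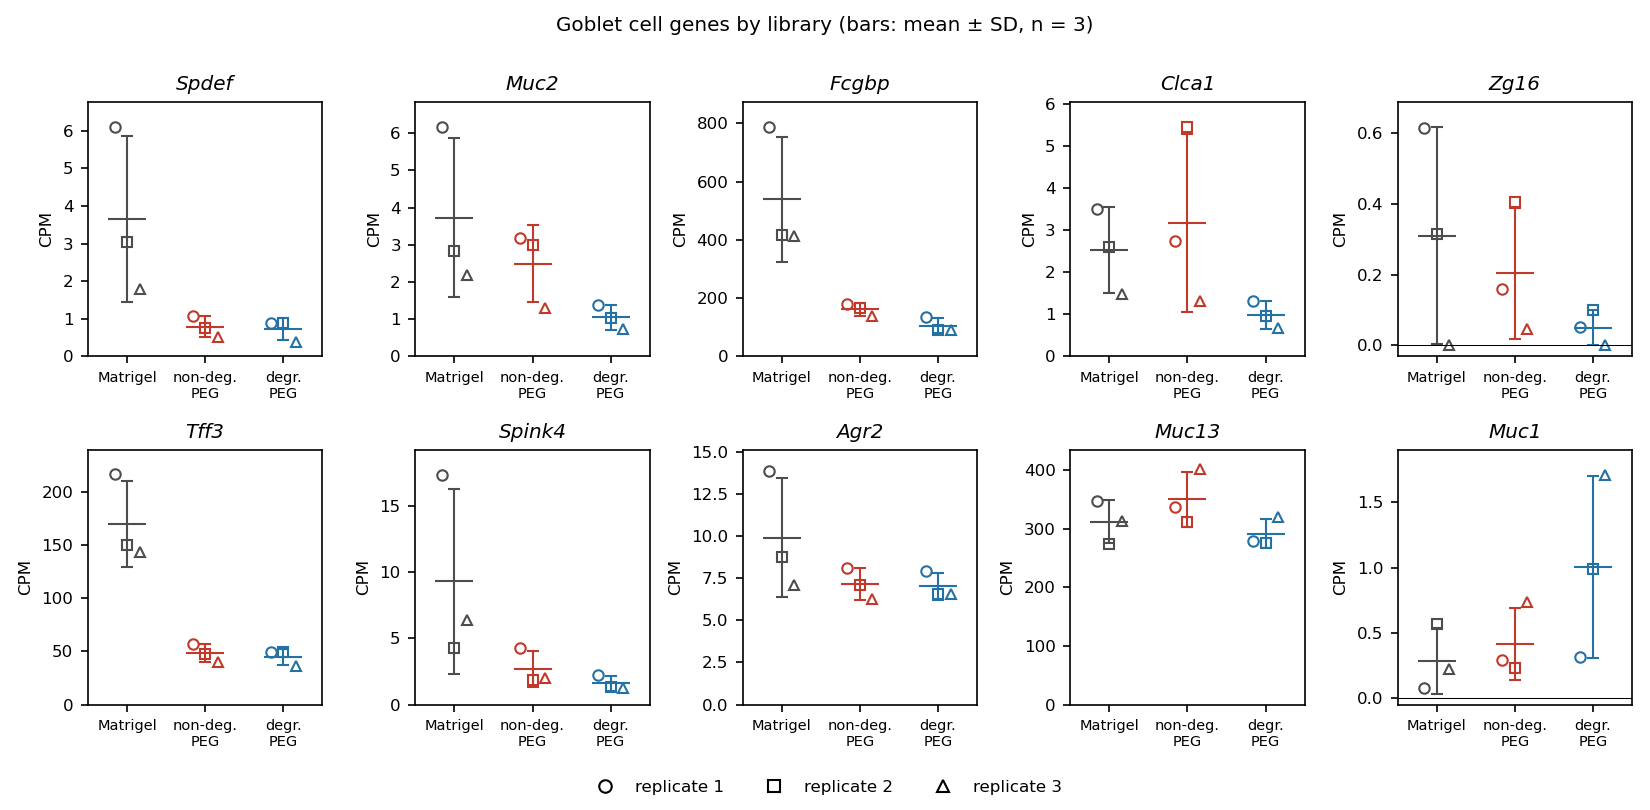
Level of each of the 10 genes in CPM (vertical axes, each with its own scale from 0 or just below) in Matrigel, non-degradable PEG and degradable PEG; symbols are the 3 libraries and bars the mean ± SD. Spdef, Fcgbp, Tff3 and Spink4 lie lower in both PEG gels than in Matrigel, Muc13 stays between 274 and 402 CPM throughout, and Matrigel replicate 1 (circle) is the highest Matrigel library in every panel but Muc1.

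The DNA just upstream of the members was read from RefSeq (GRCm38.p6), in which 6 of the 10 genes had an entry and Muc13 had 2 starts. Shown are the 250 bases before the start of the regulator Spdef, of the mucin Muc2 and of its partner Fcgbp, all lower in at least 1 PEG gel, and of the first of the Muc13 starts, for comparison, since that gene was called in neither. They are written 5′ to 3′ on the gene's strand. Capitals mark matches, on either strand, to 4 short motifs, which are CAGCTG (an E-box of the kind bound by Atoh1-type factors), CCACCC (a core of Kruppel-like factor sites), TTTATG (a core of Cdx sites) and TGTTTAC (a forkhead core).
Spdef (chr17:27728952-27729201, minus strand): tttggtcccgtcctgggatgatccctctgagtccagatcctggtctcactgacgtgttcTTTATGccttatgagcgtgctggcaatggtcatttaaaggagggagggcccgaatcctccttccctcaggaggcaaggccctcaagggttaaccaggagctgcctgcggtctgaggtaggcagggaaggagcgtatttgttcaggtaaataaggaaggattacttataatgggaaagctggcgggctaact
Muc2 (chr7:141690090-141690339, plus strand): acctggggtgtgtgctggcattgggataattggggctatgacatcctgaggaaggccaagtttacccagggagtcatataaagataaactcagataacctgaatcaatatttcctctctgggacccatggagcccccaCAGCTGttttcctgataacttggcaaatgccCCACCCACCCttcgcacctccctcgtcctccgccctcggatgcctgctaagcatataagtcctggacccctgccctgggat
Fcgbp (chr7:28070986-28071235, plus strand): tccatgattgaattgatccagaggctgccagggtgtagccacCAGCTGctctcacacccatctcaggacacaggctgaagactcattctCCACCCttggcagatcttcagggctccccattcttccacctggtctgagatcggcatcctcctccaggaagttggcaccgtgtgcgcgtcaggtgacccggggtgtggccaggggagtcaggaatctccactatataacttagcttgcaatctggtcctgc
Muc13 (chr16:33793787-33794036, plus strand): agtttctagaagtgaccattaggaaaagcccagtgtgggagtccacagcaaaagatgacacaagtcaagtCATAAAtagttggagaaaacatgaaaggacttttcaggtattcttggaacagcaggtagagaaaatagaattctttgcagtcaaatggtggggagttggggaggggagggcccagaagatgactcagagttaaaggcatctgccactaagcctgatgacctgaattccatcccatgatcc

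The Muc2 and Fcgbp windows each held 1 CAGCTG, whose first base lay 112 and 208 bases before the start. The Muc2 window had CCACCC at 81 and 77 bases, 2 matches that overlap each other, and the Fcgbp window had 1 at 161 bases. The Spdef window held TTTATG at 191 bases, and the Muc13 window shown held it on the opposite strand at 180 bases. The window before the other Muc13 start (chr16:33794239-33794488, plus strand) held 0 matches to the 4 motifs. Of the 2 other genes with an entry, the Agr2 window held CCACCC at 72 bases and TTTATG at 47, and the Muc1 window held 0 matches. The bases just after the Fcgbp start were not found in its annotated transcripts, although the start itself was that of the annotated gene. None of the 4 windows shown held TGTTTAC. Of 32851 windows of the same length upstream of mouse genes, 13.0% held CAGCTG, 28.1% CCACCC, 10.8% TTTATG and 3.17% TGTTTAC. A match of this kind is a description of the letters and not evidence of a bound site.

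Spdef (ENSMUSG00000024215, GRCm38 chromosome 17, 27714352 to 27728955, minus strand), the factor that drives goblet cell maturation, was lower in both PEG gels. Its level was 6.09, 3.03 and 1.81 CPM in Matrigel replicates 1, 2 and 3, then 1.08, 0.762 and 0.527 CPM in non-degradable PEG and 0.894, 0.891 and 0.388 CPM in degradable PEG. Every PEG library lay below every Matrigel library, and the PEG gels overlapped each other. Spdef was 4.60-fold lower in non-degradable PEG than in Matrigel (log2 fold change -2.20 ± 0.456 SE, adjusted p = 0.00810) and 4.98-fold lower in degradable PEG (-2.32 ± 0.461 SE, adjusted p = 0.00775). Without Matrigel replicate 1 the log2 fold changes were -1.62 (adjusted p = 0.0235) and -1.73 (adjusted p = 0.0217), and both calls remained. At these levels the gene had 643 reads over the 9 libraries.

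Muc2 (ENSMUSG00000025515, chromosome 7, 141690340 to 141754693, plus strand), which encodes the gel-forming mucin of intestinal mucus, passed the test as lower in degradable PEG but not in non-degradable PEG. Matrigel held 6.17, 2.84 and 2.18 CPM, non-degradable PEG 3.17, 3.00 and 1.31 CPM, and degradable PEG 1.39, 1.04 and 0.724 CPM. The libraries of non-degradable PEG overlapped those of Matrigel, whereas the degradable PEG libraries all lay below the lowest Matrigel library. The log2 fold change against Matrigel was -1.82 ± 0.445 SE in degradable PEG (3.52-fold lower, adjusted p = 0.0221) and -0.58 ± 0.413 SE in non-degradable PEG (adjusted p = 0.361). The call in degradable PEG was lost without Matrigel replicate 1 (-1.25, adjusted p = 0.0790), without degradable PEG replicate 2 (adjusted p = 0.0730) or without degradable PEG replicate 3 (adjusted p = 0.0832). The value in non-degradable PEG was -0.02 without Matrigel replicate 1. The direct difference between the PEG gels was 1.24 on the log2 scale, with a 95% interval of 0.25 to 2.23 and an adjusted p of 0.245. Muc2 was a rare transcript in every matrix, with 893 reads in all.

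Fcgbp (ENSMUSG00000047730, chromosome 7, 28071236 to 28120862, plus strand), a large secreted protein that binds to the MUC2 network, was by contrast abundant. Its level was 788, 418 and 413 CPM in Matrigel, against 181, 164 and 139 CPM in non-degradable PEG, and 137, 90.6 and 89.9 CPM in degradable PEG. The 3 matrices did not overlap, with Matrigel highest and degradable PEG lowest. Fcgbp was 3.34-fold lower in non-degradable PEG than in Matrigel (-1.74 ± 0.248 SE, adjusted p = 9.77e-04) and 5.10-fold lower in degradable PEG (-2.35 ± 0.254 SE, adjusted p = 2.38e-04). Without Matrigel replicate 1 the values were -1.37 and -1.97 (adjusted p = 0.00107 and 3.14e-04). The difference between the PEG gels was 0.61 ± 0.244 SE with an adjusted p of 0.285. Fcgbp was the single one of the 10 genes whose libraries did not overlap between the PEG gels, against 19.0% of all tested genes in either direction.

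Clca1 (ENSMUSG00000028255, chromosome 3, 145003817 to 145032776, minus strand), a secreted metalloprotease of the mucus layer, did not follow that order. It measured 3.51, 2.61 and 1.48 CPM in Matrigel, compared with 2.75, 5.46 and 1.31 CPM in non-degradable PEG, and 1.31, 0.965 and 0.672 CPM in degradable PEG. Non-degradable PEG spanned the whole Matrigel range, and degradable PEG lay below it. The log2 fold change against Matrigel was 0.33 ± 0.453 SE in non-degradable PEG (adjusted p = 0.661) and -1.36 ± 0.494 SE in degradable PEG (adjusted p = 0.101). DESeq2 called the second difference (adjusted p = 0.0284), and over all alternatives its adjusted p ran from 0.0100 to 0.293. Leaving out Matrigel replicate 1 gave 0.63 and -1.05 (adjusted p = 0.488 and 0.293). The value in non-degradable PEG turned to -0.32 without non-degradable PEG replicate 2. Between the PEG gels Clca1 had the smallest p of the 10 genes, with a log2 fold change of 1.68 ± 0.493 SE, an unadjusted p of 0.00564 and an adjusted p of 0.152. That difference was 1.03 without non-degradable PEG replicate 2 and 2.06 without replicate 3 of the same gel, where the adjusted p was 0.0426. DESeq2 called it as well (adjusted p = 0.0138), and its adjusted p ran from 0.00445 to 0.382 over all alternatives.

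Zg16 (ENSMUSG00000049350, chromosome 7, 127050156 to 127087328, minus strand), a small lectin of goblet cell granules that binds bacterial cell walls, was close to the detection limit. It had 24, 15 and 0 reads in Matrigel, 6, 16 and 2 in non-degradable PEG, and 2, 4 and 0 in degradable PEG, or 69 reads in all. A count of 0 allows for up to 3 reads, by counting error alone. Neither difference from Matrigel passed the test, and the 95% interval of the log2 fold change ran from -2.59 to 1.43 for the non-degradable gel (adjusted p = 0.703) and from -5.11 to 0.13 for the degradable gel (adjusted p = 0.206). Leaving out Matrigel replicate 1 gave log2 fold changes of 0.31 and -1.59 (adjusted p = 0.890 and 0.537). The edgeR fit with the replicate number as a block called Zg16 lower in degradable PEG (-2.49, adjusted p = 0.0446).

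Among the small secreted proteins, Tff3 (ENSMUSG00000024029, chromosome 17, 31125306 to 31129646, minus strand) gave the smallest p-values of the 10 genes. It encodes trefoil factor 3, a peptide released with mucus that aids repair of the epithelium. Tff3 measured 216, 149.5 and 143 CPM in Matrigel, against 57.0, 47.2 and 40.0 CPM in non-degradable PEG and 49.1, 49.0 and 36.2 CPM in degradable PEG. Both PEG gels lay far below Matrigel and overlapped each other. Tff3 was 3.53-fold lower in non-degradable PEG (-1.82 ± 0.181 SE, adjusted p = 1.60e-04) and 3.79-fold lower in degradable PEG (-1.92 ± 0.182 SE, adjusted p = 1.39e-04), and it was called in both comparisons under each of 17 alternative settings, as was Fcgbp. The log2 fold changes were -1.61 and -1.71 without Matrigel replicate 1 (adjusted p = 3.06e-04 and 3.14e-04). The difference between the PEG gels was 0.10 on the log2 scale (95% interval -0.29 to 0.49, adjusted p = 0.818).

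Spink4 (ENSMUSG00000028415, chromosome 4, 40920052 to 40931395, plus strand), a Kazal-type protease inhibitor of goblet cells, measured 17.3, 4.27 and 6.34 CPM in Matrigel. It measured 4.25, 1.85 and 1.97 CPM in non-degradable PEG and 2.24, 1.29 and 1.27 CPM in degradable PEG. Neither gel overlapped Matrigel, although replicate 1 of non-degradable PEG, at 4.25 CPM, lay just under the lowest Matrigel library, at 4.27 CPM. The fitted log2 fold change was -1.79 ± 0.494 SE in non-degradable PEG (adjusted p = 0.0309) and -2.54 ± 0.519 SE in degradable PEG (adjusted p = 0.00904). The first call was lost without Matrigel replicate 1 (-0.99, adjusted p = 0.122), without non-degradable PEG replicate 2 (adjusted p = 0.0885) or without replicate 3 of that gel (adjusted p = 0.113). The second remained without Matrigel replicate 1, at -1.73 (adjusted p = 0.0204), which is a shrinkage of the fold by 1.75 times.

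Agr2 (ENSMUSG00000020581, chromosome 12, 35992907 to 36004087, plus strand) encodes a disulfide isomerase of the endoplasmic reticulum that is needed to fold MUC2. It was not called in either gel. The levels were 13.9, 8.80 and 7.09 CPM in Matrigel, compared with 8.14, 7.09 and 6.26 CPM in non-degradable PEG and 7.92, 6.58 and 6.57 CPM in degradable PEG, and the ranges overlapped. The log2 fold changes were -0.47 ± 0.219 SE (95% interval -0.95 to 0.01, adjusted p = 0.164) and -0.50 ± 0.219 SE (95% interval -0.98 to -0.01, adjusted p = 0.172). Without Matrigel replicate 1 they were -0.16 and -0.18 (adjusted p = 0.613 and 0.594). With the replicate number as a block in edgeR, both values passed the test. They were -0.43 in non-degradable PEG (adjusted p = 0.0466) and -0.46 in degradable PEG (adjusted p = 0.0485).

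**Figure D2:**
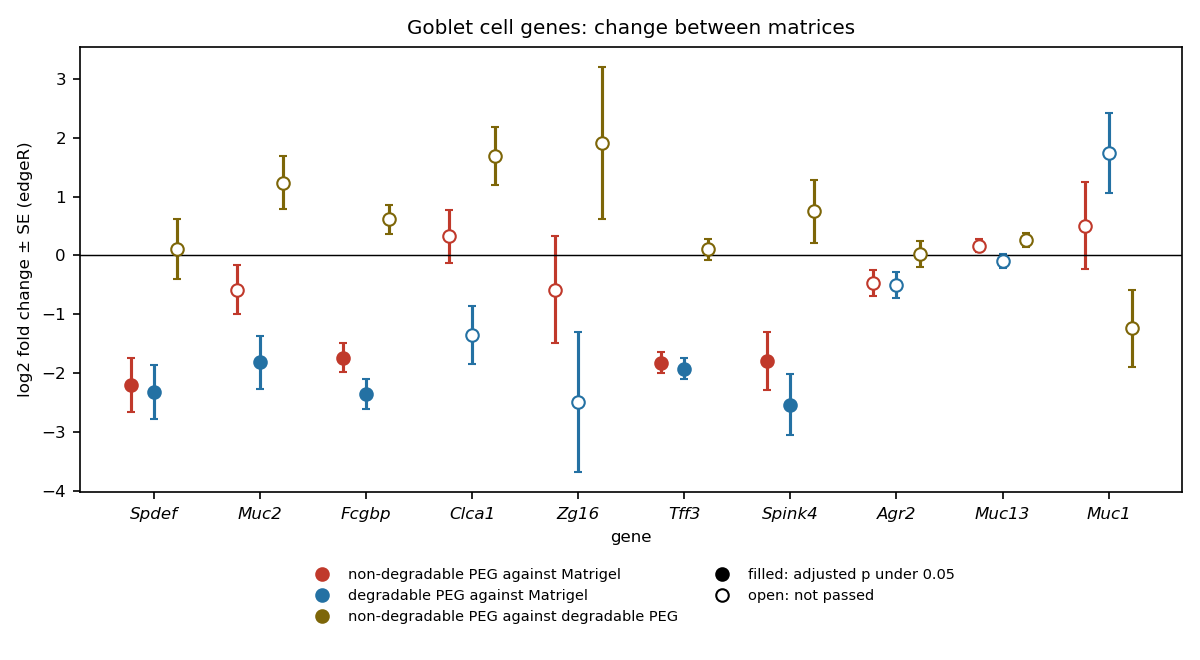
Log2 fold change ± SE (vertical axis) of each of the 10 genes (horizontal axis) for the 3 comparisons, from the edgeR fit of 3 libraries per matrix; filled points passed the adjusted p threshold of 0.05. Spdef, Fcgbp, Tff3 and Spink4 are filled and below 0 for both PEG gels against Matrigel, Muc2 for degradable PEG, and no point is filled between the PEG gels.

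With all 9 libraries, the read filter and no replicate block, edgeR's test called the membrane-bound mucins in no comparison. Muc13 (ENSMUSG00000022824, chromosome 16, 33794037 to 33819934, plus strand), a transmembrane mucin of the apical surface, measured 348, 274 and 313 CPM in Matrigel. It measured 336, 311 and 402 CPM in non-degradable PEG and 279, 275 and 321 CPM in degradable PEG, so all 3 matrices overlapped. The log2 fold change against Matrigel was 0.17 (95% interval -0.08 to 0.41, adjusted p = 0.335) in non-degradable PEG and -0.10 (95% interval -0.34 to 0.15, adjusted p = 0.633) in degradable PEG. The values were 0.25 and -0.0076 without Matrigel replicate 1. These intervals lie above the log2 fold changes of Tff3, Fcgbp, Spink4 and Spdef. The exons of Muc13 overlap those of Gm15657 on the opposite strand, and whether the counts used strand is not given in the sources used here.

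Muc1 (ENSMUSG00000042784, chromosome 3, 89229057 to 89233381, plus strand), the other transmembrane mucin, had 3, 27 and 10 reads in Matrigel, 11, 9 and 32 in non-degradable PEG and 12, 40 and 66 in degradable PEG. It was the one gene of the 10 with a fitted value above 0 in degradable PEG, with a log2 fold change of 1.75 ± 0.677 SE and an adjusted p of 0.122. The value ran from 1.13 without degradable PEG replicate 3 to 2.70 without Matrigel replicate 2, and it passed the test without degradable PEG replicate 1 (2.17, adjusted p = 0.0323). Over all alternatives its adjusted p ran from 0.0203, in the edgeR fit with no filter, to 0.385. With a replicate block, edgeR also called Muc1 higher in degradable PEG (adjusted p = 0.0425). Without Matrigel replicate 1 the log2 fold changes were 0.094 in non-degradable PEG, against 0.51 with all libraries, and 1.34 in degradable PEG (adjusted p = 0.956 and 0.297). The value in non-degradable PEG turned to -0.20 without replicate 3 of that gel.

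Per kilobase of annotated exon, the genes spanned a wide range of levels in Matrigel. Tff3 led with 344 ± 82.1 CPM per kilobase, followed by Muc13 with 103 ± 12.1, Fcgbp with 51.4 ± 20.5, Spink4 with 19.5 ± 14.7 and Agr2 with 7.69 ± 2.73. Spdef, Clca1, Muc2, Zg16 and Muc1 followed in that order, from 1.58 ± 0.958 for Spdef to 0.123 ± 0.108 for Muc1. The ranges of Spink4 and Agr2 overlapped, as did those of each neighbouring pair from Spdef down, so their order is not resolved. In the PEG gels Muc13 stood first, at 115 ± 15.5 CPM per kilobase in the non-degradable gel and 96.0 ± 8.33 in the degradable one. Tff3 was next at 97.5 ± 17.2 and 90.9 ± 15.0, and its range overlapped that of Muc13 in both gels. The level of Muc2 depends on the gene model, because its annotated exons sum to 7127 bases while its longest annotated transcript has 2926. With the longest transcript its Matrigel level was 1.28 instead of 0.523 CPM per kilobase.

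Most of the 10 genes ranked the libraries of 1 matrix alike. Replicate 1 was the highest library for 9 of the 10 in Matrigel, for 6 in the non-degradable gel and for 7 in the degradable gel, against 38.1%, 28.4% and 34.3% of all tested genes. Replicate 3 was the lowest for 7, 7 and 8 of them, against 33.0%, 36.5% and 28.5%. No source used here ties equal replicate numbers to a shared culture or day. The exceptions were Muc1, whose lowest Matrigel library was replicate 1, Muc13, whose lowest library was replicate 2 in every matrix, and Clca1, Zg16 and Spink4. The lowest library of Spink4 was replicate 2 in Matrigel and in non-degradable PEG. Replicate 3 was the highest library of both PEG gels for Muc13 and Muc1, and replicate 2 was the highest in non-degradable PEG for Clca1 and Zg16 and in degradable PEG for Zg16.

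**Figure D3:**
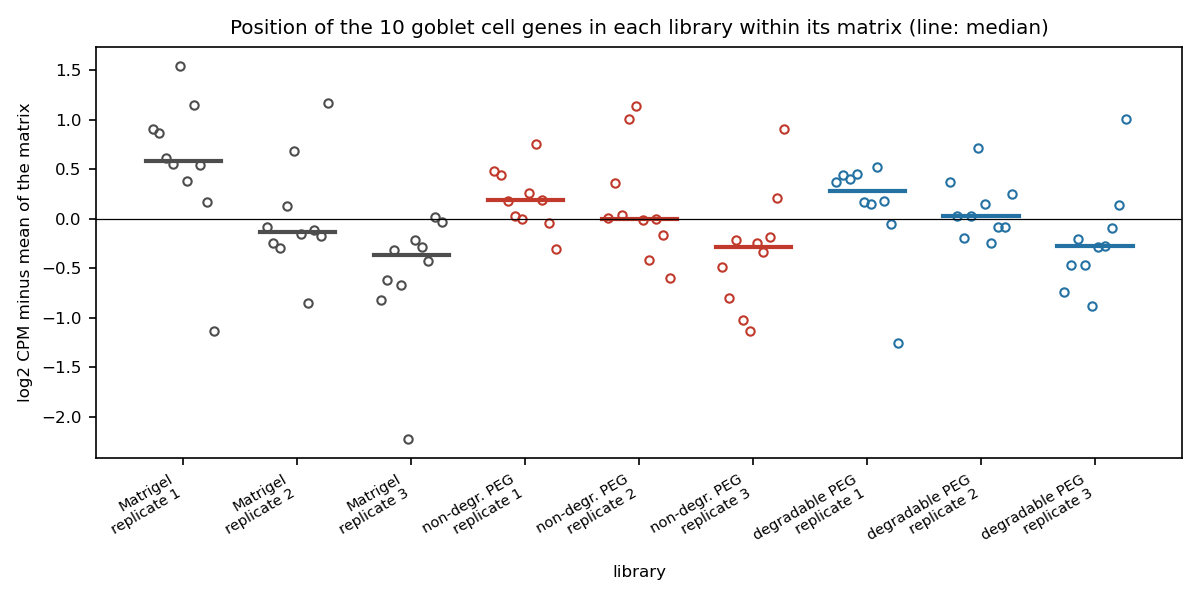
Position of each of the 10 genes in each library (points), as log2 CPM minus the gene's mean over the 3 libraries of that matrix (vertical axis); lines are medians over the 10 genes. The median is 0.58 in Matrigel replicate 1, against -0.14 and -0.37 in replicates 2 and 3, and the 3 medians lie closer together in each PEG gel.

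Genes whose level followed a member most closely over the 9 libraries were sought among tested genes whose mean was 5 CPM or more, by Pearson's r of log2 CPM. The 3 closest to Tff3 were Ubl4a (r = 0.994), the Paneth cell defensin Defa24 (r = 0.990) and Hgsnat (r = 0.988). Closest to Fcgbp were Rxra (r = 0.990), Abhd15 (r = 0.983) and Matn2 (r = 0.982), and closest to Spdef were Ctdsp1 (r = 0.992), Stard7 (r = 0.980) and Def8 (r = 0.980). For Muc2 they were Mgst2 (r = 0.957), Acp2 (r = 0.955) and Arsg (r = 0.954), and for Muc13, which was not called, Ncald (r = 0.972), Sipa1l1 (r = 0.970) and Sh2b3 (r = 0.953). These values describe 9 libraries of which each 3 share a matrix, so that a difference between matrices alone raises r.

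Among other genes of the goblet cell programme, Gfi1 fell and Klf4 rose in both PEG gels. Of 9 transcription factors of the secretory lineage, 2 were higher and 1 lower in non-degradable PEG than in Matrigel, 1 was higher and 1 lower in degradable PEG, and 0 were called between the gels. The background for these and the following lists is the share of all tested genes given above, 9.71% higher and 7.13% lower for the first gel, 7.42% and 4.79% for the second, and 1.28% between them. Gfi1, a repressor that acts after Atoh1 in goblet and Paneth cells, fell from 2.61 ± 1.09 CPM in Matrigel to 0.894 ± 0.106 CPM in non-degradable gels and 0.794 ± 0.0584 CPM in degradable ones (log2 fold change -1.54 and -1.71, adjusted p = 0.00445 and 0.00297), and without Matrigel replicate 1 the values were -1.16 and -1.32 and both calls remained. Klf4, a zinc finger factor of goblet cells and of differentiated epithelium more widely, rose instead, from 21.5 ± 0.298 CPM to 66.8 ± 34.8 and 85.5 ± 22.4 CPM (1.64 and 1.99, adjusted p = 0.00587 and 0.00234). Xbp1, a factor of the unfolded protein response, rose in non-degradable PEG by a log2 fold change of 0.35 (adjusted p = 0.0310), a call lost when any 1 of the Matrigel libraries or non-degradable PEG replicate 1 or 3 was left out. Atoh1 itself was not called, at 5.24 ± 2.81 CPM in Matrigel against 2.89 ± 0.782 CPM in the non-degradable gel and 3.80 ± 0.759 CPM in the degradable gel (adjusted p = 0.102 and 0.412). Its Matrigel replicate 1 was at 8.48 CPM and the other 2 at 3.62 and 3.61 CPM.

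The enzymes that glycosylate mucins and the proteins of their secretory pathway were mostly not called. Of 19 genes listed, 18 were tested, and 3 were higher and 0 lower in non-degradable PEG, 1 higher and 1 lower in degradable PEG, and 0 were called between the gels. These counts are near the background of 16.8% and 12.2% called in either direction. Without Matrigel replicate 1, 1 was higher and 0 lower in each gel. Their median log2 fold changes were 0.13, -0.0019 and 0.09. Ern2, the IRE1-type stress sensor of goblet cells, fell from 1.99 ± 0.994 CPM in Matrigel to 0.542 ± 0.306 in degradable PEG (-1.87, adjusted p = 0.0196). It measured 0.875 ± 0.298 CPM in non-degradable PEG (-1.18, adjusted p = 0.0747, or 0.00402 when replicate numbers were blocked), and the degradable PEG call was lost without Matrigel replicate 1 (-1.40, adjusted p = 0.0701) or degradable PEG replicate 2 or 3 (adjusted p = 0.0777 and 0.0755). Gcnt3, which builds branched mucin O-glycans, rose from 11.8 ± 4.49 to 23.4 ± 2.69 CPM in non-degradable PEG (0.99, adjusted p = 0.0162), a call lost without replicate 1 or 3 of that gel (adjusted p = 0.0528 and 0.0512). B3gnt6, which makes the core 3 O-glycan of intestinal mucins, rose from 0.300 ± 0.0687 to 0.724 ± 0.140 CPM in degradable PEG (1.26, adjusted p = 0.0251), a call lost without Matrigel replicate 1 or 3 or degradable PEG replicate 2.

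Of 17 further goblet cell markers, 12 were tested. In non-degradable PEG 3 were higher and 3 lower than in Matrigel, in degradable PEG 1 was higher and 4 lower, and between the gels 1 differed, against 16.8%, 12.2% and 1.28% of all tested genes in either direction. Hepacam2, an adhesion protein found in secretory cells, fell from 9.53 ± 2.76 CPM in Matrigel to 2.08 ± 0.674 and 1.88 ± 0.739 CPM (-2.19 and -2.34, adjusted p = 9.37e-04 and 8.60e-04), and without Matrigel replicate 1 the values were -1.94 and -2.08 and both calls remained. Scin, an actin-severing protein, separated the PEG gels, with 2.51, 1.52 and 2.498 CPM in non-degradable PEG and 0.447, 0.148 and 0.465 CPM in degradable PEG (2.62, adjusted p = 0.0222). That call was lost without non-degradable PEG replicate 1 (adjusted p = 0.0862) or degradable PEG replicate 2 (adjusted p = 0.105). Bace2, a membrane protease, rose in both gels (0.52 and 0.84, adjusted p = 0.0404 and 0.00488). The first of these calls was lost when any 1 of the Matrigel libraries, non-degradable PEG replicate 1 or 3 or degradable PEG replicate 3 was left out.

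Among 13 other mucin and trefoil genes, 3 were tested, and 2 of them were higher in the non-degradable gel, 1 in the degradable gel (9.71% and 7.42% of all tested genes were) and 0 were called between the gels. Muc4, a membrane mucin, rose from 40.1 ± 5.34 CPM in Matrigel to 115 ± 17.0 CPM in the non-degradable gel and 90.4 ± 28.2 CPM in the degradable gel (1.52 and 1.17, adjusted p = 5.59e-04 and 0.00272). Muc3, another membrane mucin, rose from 0.926 ± 0.294 to 3.48 ± 0.0825 CPM in non-degradable PEG (1.91, adjusted p = 7.68e-04). It measured 1.69 ± 0.429 CPM in degradable PEG (0.86, adjusted p = 0.0589). The exons of Muc4 overlap those of Muc20 on the opposite strand. The gastric and airway gel-forming mucins Muc5ac, Muc5b and Muc6 had 1, 1 and 0 reads over all 9 libraries, and Tff1, the stomach trefoil factor, had 1.

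Of 7 other Clca genes, which belong to the same family as Clca1, 5 were tested. In non-degradable PEG 0 were higher and 2 lower than in Matrigel, in degradable PEG 0 were higher and 1 lower, and between the gels 1 differed, against 16.8%, 12.2% and 1.28% of all tested genes in either direction. With the replicate number as a block, 1 was higher and 3 lower in non-degradable PEG, against 2091 higher and 1786 lower of all 14870 genes with that block. Clca3b was far more abundant than Clca1, with 1134, 858 and 997 CPM in Matrigel, against 637, 551 and 514 CPM in non-degradable PEG and 1302, 966 and 937 CPM in degradable PEG. It was lower in non-degradable PEG than in Matrigel (-0.81, adjusted p = 0.00306) and than in degradable PEG (-0.91, adjusted p = 0.0152). The second call was lost without degradable PEG replicate 2 (adjusted p = 0.0596). Clca3a1 fell in both PEG gels (-1.11 and -0.84, adjusted p = 0.00319 and 0.0156), and the second call was lost without Matrigel replicate 2 or 3 or degradable PEG replicate 3. Members of this family are close copies of each other, so reads may be split among them in ways that the counts do not show.

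**Figure D4:**
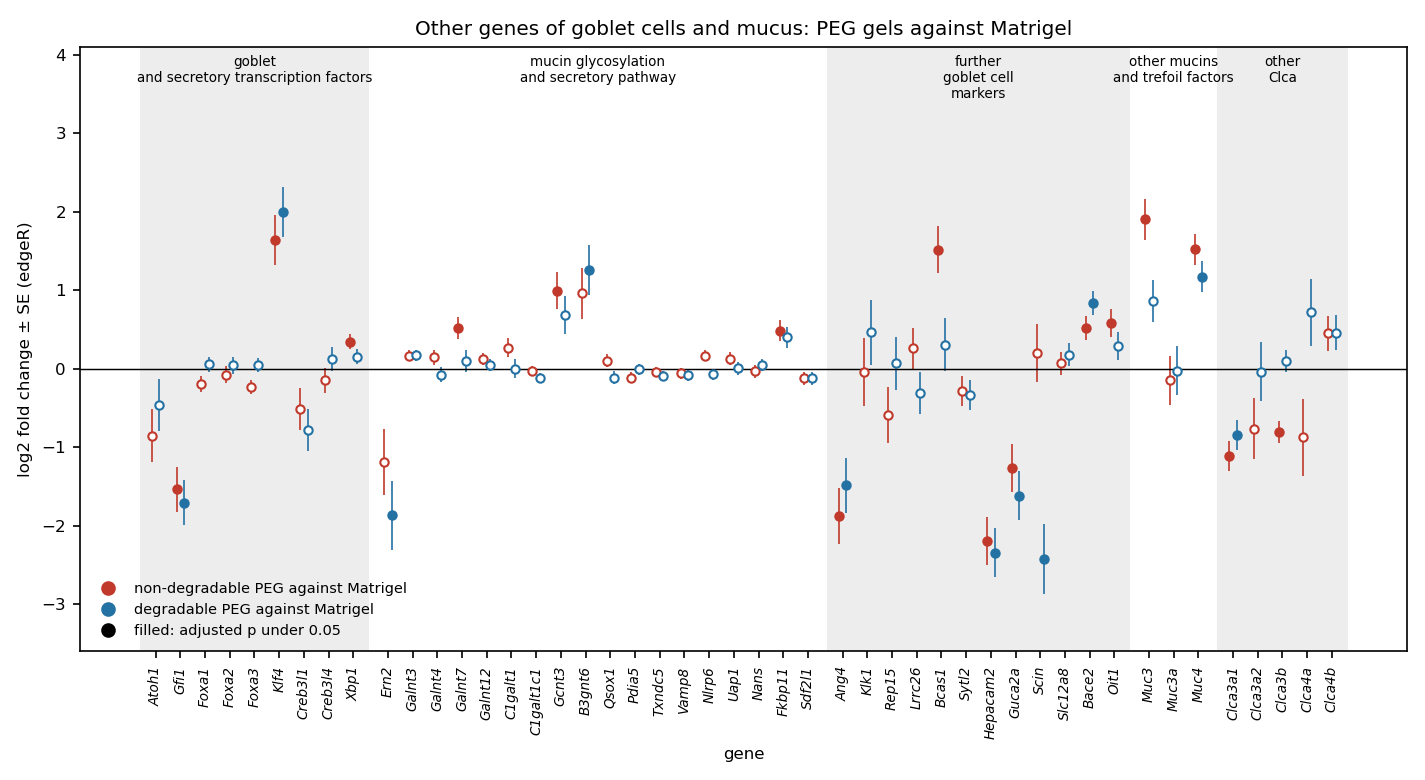
Log2 fold change ± SE (vertical axis) of the tested genes of 5 further lists (horizontal axis), in non-degradable PEG and degradable PEG against Matrigel, from the edgeR fit of 3 libraries per matrix; filled points passed the adjusted p threshold of 0.05. Gfi1 and Hepacam2 lie below 0 and Klf4 and Muc4 above 0 in both gels, while most glycosylation genes lie near 0.

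Paneth, enteroendocrine, tuft and crypt base stem cell markers were also lower in sum in both PEG gels, while enterocyte markers overlapped Matrigel in non-degradable PEG. The stem sum was mostly Smoc2 and Slc12a2. Summed over 8 of the 10 genes (all but Muc13 and Muc1), the goblet markers spanned 575 to 1052 CPM in Matrigel, 190.0 to 258 CPM in the non-degradable gel and 136 to 199.6 CPM in the degradable gel. The summed level of 10 Paneth markers spanned 847 to 1692 CPM, 313 to 499.8 CPM and 367 to 405 CPM in the same order, and 8 of 10 were lower in each gel, while 1 (Mmp7) was higher in degradable PEG. Of all tested genes, 7.13% and 4.79% were lower in the 2 gels. The Paneth list shares Ang4 with the further goblet markers. The 10 enteroendocrine markers ran from 91.3 to 152 CPM, 18.2 to 24.4 and 25.3 to 36.6, with 7 and 5 of 8 tested lower. The 8 tuft markers ran from 9.23 to 10.7 CPM, 4.52 to 4.80 and 4.18 to 6.09, with 2 of 4 tested lower in each gel. Gfi1b and Sh2d6 of that list had 2 reads each in all, those of Gfi1b in Matrigel and those of Sh2d6 in non-degradable PEG. The Paneth, enteroendocrine, tuft and goblet sums thus shared the order of Matrigel above both gels, as did the crypt base stem sum given below. In Matrigel, Fcgbp and Tff3 averaged 539 and 170 CPM of a goblet sum of 739 CPM, and Pou2f3 7.04 of a tuft sum of 9.73 CPM. In non-degradable and degradable PEG, fitted values were below 0 for 7 and 8 of 8 goblet and 9 and 9 of 10 Paneth markers. They were below 0 for 8 and 7 of 8 enteroendocrine and 3 and 2 of 4 tuft markers tested, against 7488 and 7892 of all 14870 genes. The lowest Matrigel library of each sum was replicate 2 or 3, so the sums stay apart without Matrigel replicate 1.

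The 7 crypt base stem cell markers were summed at 4951 to 5154 CPM, 3887 to 3964 CPM and 3837 to 4582 CPM, again in that order, with 3 and 1 of 7 lower and 1 (Ascl2) higher in each gel. The 9 enterocyte markers were at 383 to 497 CPM, 379 to 519 and 269 to 339, with 2 lower and 2 higher in non-degradable PEG and 4 lower in degradable PEG, out of 9 tested. With the replicate number as a block, 5 were higher and 2 lower in non-degradable PEG, against 2091 higher and 1786 lower of all 14870 genes. Without the block, the shares of all tested genes were 9.71% higher and 7.13% lower in non-degradable PEG, then 7.42% and 4.79% in degradable PEG. Gastric surface markers summed to at most 0.158 CPM with Gkn1 and Gkn2 at 0, and blood markers to at most 0.41 CPM with Ptprc and Cd52 at 0. The 6 mesenchymal markers were at 124 to 273, 83.3 to 118 and 92.0 to 158 CPM, and the sum was mostly Vim, while Col3a1 was at 0, and 1 of 3 tested was lower in non-degradable PEG. The part of these shifts in the goblet cell results was not tested.

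Between the PEG gels, edgeR's quasi-likelihood test called 0 of the 10 genes, against 1.28% of all tested genes. DESeq2 called 1 (Clca1), against 512 of 14870 genes, and the edgeR fit with no filter called 3 (Muc2, Fcgbp and Clca1), against 521 of 25392 genes. In the main edgeR test 4 had an unadjusted p under 0.05 (Clca1, Muc2, Fcgbp and Muc13), against 14.8% of all tested genes. The fitted value was above 0, that is higher in non-degradable PEG, for 9 of the 10 and below 0 for Muc1. It was below 0 for 7329 of all 14870 tested genes. The 95% intervals still held sizeable differences for the rare genes, from -0.42 to 1.92 for Spink4 and from -0.999 to 1.23 for Spdef. For Agr2 the interval was -0.46 to 0.51, and for Muc13 it was 0.015 to 0.51 (adjusted p = 0.315). The gels are therefore not shown to be alike for these genes.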

How the data were processed

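The authors deposited raw read counts per gene, 1 table for each of the 9 libraries. The tools cutadapt 1.3, STAR 2.4.2a and HTSeq 0.6.1 and the mouse genome GRCm38 are named in the submitters' processing notes. The labels' protocols name the RNeasy Micro kit for RNA and the TruSeq stranded mRNA kit for libraries. The annotation and the strand setting of the counting were not given in the sources used here. The tables held 46517 genes and 5 tally rows, which were removed. The share of reads without a feature, out of assigned, ambiguous and featureless reads together, was 7.29% to 11.2%. GENCODE M21 (GRCm38) gave symbols, coordinates and exon lengths for 46005 genes.

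The edgeR function filterByExpr kept 14870 genes. Each comparison was a contrast in 1 quasi-likelihood fit with TMM scaling, in which all 9 libraries entered and each matrix had 1 mean (6 residual and a median of 5.17 prior degrees of freedom), with Benjamini-Hochberg adjustment over all tested genes. The SE was the size of the log2 fold change divided by the root of the F statistic. The biological coefficient of variation was 11.03% and the median SE 0.112. Tested on simulated data for non-degradable PEG against Matrigel, over 14870 genes, the fit recovered 92 of 100 genes changed 2-fold and 100 of 100 changed 4-fold, with 12 false calls. The changed genes were drawn from those with a mean of at least 1 CPM. The recovery therefore does not cover rarer genes such as Zg16 and Muc1. The simulated counts were drawn independently for each library, with the spread that the fit itself had estimated. A smaller share of genes was changed than was called in the data. No library stood apart in the simulation and no same-numbered libraries were correlated, so the recovery and the false calls do not cover these features. The fits used edgeR 4.0.16 and DESeq2 1.42.0 in R 4.3.3.

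The members and gene lists were chosen with earlier results of these data known. Named were all 10 members, at most 3 genes of each further list (those with the smallest p among genes called in any comparison), Atoh1, which was added for its role, and the 3 genes most correlated with each of 5 members. Alternatives were RLE, upper-quartile or no scaling, DESeq2, no filter, a filter of 10 CPM in 3 libraries, a fit of the compared matrices alone, a replicate block and leaving out each library in turn. The replicate numbers come from the labels, which do not say what they share. Deviations from the matrix means correlated above 0.1 in all 3 same-numbered pairs for non-degradable PEG against Matrigel (0.331, 0.176 and 0.186). They did not in the other comparisons (lowest 0.0712 and 0.0197). These correlations draw on the same counts as the tests, so they are no independent evidence of a pairing. The main fit treated no comparison as paired, and the replicate block is given as an alternative only.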

Additional observations from a re-analysis of the deposited data

How the results depend on the processing

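Tff3 and Fcgbp kept both calls against Matrigel under all 17 alternatives, and Spdef under the 16 that tested it. Spink4 in non-degradable PEG and Muc2 in degradable PEG each lost their call without 3 of the libraries, as given above. Leaving out 1 library at a time gave 1189 to 3247 changed genes for non-degradable PEG against Matrigel (2504 with all libraries), 1086 to 2395 for degradable PEG against Matrigel (1815) and 19 to 242 between the PEG gels (190). The members called ran from 3 to 4, 4 to 6 and 0 to 1. The first count moved by over 1.5 times without Matrigel replicate 1 (1452) or 2 (1636) or non-degradable PEG replicate 1 (1656) or 3 (1189). The second did so without Matrigel replicate 1 (1086) or 3 (1177) or degradable PEG replicate 3 (1178), and the third without non-degradable PEG replicate 1 (28) or 2 (124) or degradable PEG replicate 1 (117) or 2 (19). With a filter of 10 CPM, which left 3 members to test (Tff3, Fcgbp and Muc13), 1569, 1011 and 110 genes changed and 2 members were called in each comparison with Matrigel. Between the PEG gels, DESeq2 called 512 genes and 1 member (Clca1), and the fit with no filter called 521 genes and 3 members (Muc2, Fcgbp and Clca1).

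With a replicate block 3877, 2783 and 542 genes changed, and 5, 9 and 3 members were called. The 5 were the 4 called without it and Agr2, the 9 all but Muc13 (Muc1 higher, the others lower), and the 3 Muc2, Fcgbp and Clca1. For non-degradable PEG against Matrigel, the block changed no call of a named gene other than Agr2 and Ern2. Whether equal numbers pair the libraries is not known for any of the comparisons. Over all 3 comparisons, deviations of same-numbered libraries correlated above 0.1 in 7 of 9 pairs (range 0.0197 to 0.511) and those of differently numbered ones in 1 of 18 (-0.454 to 0.257). The deviations within a matrix sum to 0, so positive correlations of same-numbered libraries push the others down. The 2 sets of pairs are therefore not independent of each other. Upper-quartile scaling moved the share of higher calls in degradable PEG from 60.8% to 70.7%.

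Signs turned only among values that had not passed the test, and only where 1 library was left out. The ranges over the left-out libraries for non-degradable PEG against Matrigel were -1.58 to 0.31 for Zg16 (above 0 without Matrigel replicate 1) and -0.32 to 0.70 for Clca1 (below 0 without non-degradable PEG replicate 2). They were -0.20 to 1.46 for Muc1 (below 0 without non-degradable PEG replicate 3) and -0.00099 to 0.68 for Scin (below 0 without Matrigel replicate 2 or 3). For degradable PEG against Matrigel, Clca3b ran from -0.065 to 0.21 (below 0 without degradable PEG replicate 1). Between the PEG gels the ranges were -0.044 to 0.22 for Tff3, -0.079 to 0.12 for Agr2, -0.18 to 0.35 for Spdef and -0.11 to 0.50 for Hepacam2. Tff3, Agr2 and Spdef turned without non-degradable PEG replicate 1 or degradable PEG replicate 3, Agr2 also without degradable PEG replicate 2, and Hepacam2 without non-degradable PEG replicate 2 or degradable PEG replicate 3. The cause of these moves was not tested. Counting error weighs most on Zg16 and Muc1, with 69 and 210 reads in all, and its part in their spread was not tested.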
